A study of Mus musculus with 6 samples.

Results

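Chemokines are small secreted or membrane-bound proteins that guide cells, and interleukins are cytokines that act through receptors on nearby cells. Described here are 10 genes of these families, of 55335 genes counted, in RNA pulled down from mouse retina to profile retinal ganglion cells, the neurons that send the optic nerve to the brain. They comprise 4 chemokines (Ccl2, Cx3cl1, Cxcl12 and Cxcl16), 2 interleukins (Il33 and Il15) and 4 receptor chains (Il1r1, Il13ra1, Il11ra1 and Il17ra). They were selected on the counts of these same libraries, naive against SOHU, so those values are given as a description and are not read as a test. The SEs and calls of the members come from the same fit, and tests are read only for other genes.

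The libraries came from wild type C57BL/6 mice aged 10 weeks. The naive group had 3 libraries. The SOHU group (silicone oil-induced ocular hypertension, under-detected) also had 3 and models glaucoma: silicone oil in the anterior chamber raises the eye pressure, and these retinas were collected 1 week after the injection. The labels repeat the oil treatment for all 6 samples, and the groups here follow their condition label. An antibody to the HA tag was used for the pull-down in both groups, and neither the tagged protein nor the cell type in which it was expressed is given in the labels used here. Whether each library stands for its own mouse or for a pool is not stated in the labels, so p-values measure the spread between these libraries, which may be technical.

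RNA of other cell types was present in the pull-down. Each library had 21691354 to 26824919 counted reads. The summed share of 14 ganglion cell markers (for example Rbpms, Slc17a6 and Nefl) was 0.325 to 0.544% of the reads in naive and 0.158 to 0.225% in SOHU, and 13 of the 14 fell. The 14 Müller glia and astrocyte markers held 1.34 to 1.59% in naive and 2.11 to 3.58% in SOHU, more than the ganglion cell markers in every library, and 8 of the 13 tested rose. These sums did not overlap between the groups. Their part in the results below was not tested. In such pull-down RNA, fewer cells of a type, less RNA per cell and a change in the capture itself cannot be told apart.

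CX3CL1 (fractalkine) is a membrane-anchored chemokine made by neurons, and its receptor CX3CR1 is a hallmark of microglia. CCL2 draws monocytes through CCR2, CXCL12 acts through CXCR4, and CXCL16 is a further membrane-anchored ligand. IL-33 is stored in the nucleus, in the retina mainly of Müller glia, and is released on damage, while IL-15 supports natural killer and T cells. Each of the receptor chains works with a partner chain: IL1R1 with IL1RAP, IL13RA1 with IL4RA, IL11RA1 with gp130 (Il6st) and IL17RA with other IL-17 receptor chains. Signals of IL1R1 and IL17RA run to NF-kB, and those of IL13RA1 and IL11RA1 to STAT factors.

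Promoter windows, from 250 bases before to 50 bases after an annotated start site, were taken from RefSeq (GRCm38.p6) for the 6 members that the table holds: Cx3cl1, Cxcl12, Il33, Il1r1, Il13ra1 and Il11ra1, with 9 windows in all. The windows were searched on both strands for the NF-kB motif GGGRNNYYCC, the STAT motif TTCNNNGAA and the AP-1 motif TGANTCA. The TATA box TATAAA and the GC box GGGCGG were searched in the same way. In these motifs R stands for A or G, Y for C or T and N for any base. These 4 windows are shown because they set Cx3cl1, the member that was lower in SOHU, beside the most abundant member and a pair that were higher. They lie on the plus strand at chr8:94771930-94772229 for Cx3cl1, chr19:29945540-29945839 for Il33, chr6:117168285-117168584 for Cxcl12 and chrX:36111858-36112157 for Il13ra1, are written 5′ to 3′, and have every motif match in capitals, with adjoining or overlapping matches run together.
Cx3cl1: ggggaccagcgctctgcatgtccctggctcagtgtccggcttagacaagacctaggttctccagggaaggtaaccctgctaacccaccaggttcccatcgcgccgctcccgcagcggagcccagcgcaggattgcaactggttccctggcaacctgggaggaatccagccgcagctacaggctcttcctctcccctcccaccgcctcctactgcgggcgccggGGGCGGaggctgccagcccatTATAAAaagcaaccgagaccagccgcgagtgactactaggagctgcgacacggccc
Il33: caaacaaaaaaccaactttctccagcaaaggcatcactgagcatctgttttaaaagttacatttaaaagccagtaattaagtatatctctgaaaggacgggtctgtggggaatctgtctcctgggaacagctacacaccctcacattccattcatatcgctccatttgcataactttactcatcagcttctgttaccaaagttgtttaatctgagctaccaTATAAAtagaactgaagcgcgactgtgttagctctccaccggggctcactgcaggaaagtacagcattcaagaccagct
Cxcl12: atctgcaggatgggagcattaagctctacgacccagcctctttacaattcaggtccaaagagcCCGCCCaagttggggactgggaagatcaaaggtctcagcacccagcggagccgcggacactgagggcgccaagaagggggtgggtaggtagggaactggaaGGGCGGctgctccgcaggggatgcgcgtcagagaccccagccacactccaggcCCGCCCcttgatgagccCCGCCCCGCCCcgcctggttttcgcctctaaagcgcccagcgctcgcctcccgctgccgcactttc
Il13ra1: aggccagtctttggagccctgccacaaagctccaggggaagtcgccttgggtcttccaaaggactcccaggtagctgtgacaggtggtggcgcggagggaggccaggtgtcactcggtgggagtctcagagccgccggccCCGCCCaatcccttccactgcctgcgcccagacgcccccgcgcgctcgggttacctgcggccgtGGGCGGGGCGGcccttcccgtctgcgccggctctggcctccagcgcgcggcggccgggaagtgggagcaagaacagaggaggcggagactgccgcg
The Cx3cl1 window holds 1 TATA box, at -6 from the start site, and 1 GC box. The Il33 window shown holds 1 TATA box, at -29, and no GC box, and it lies inside the annotated gene. Another Il33 window, at the gene start (chr19:29924863-29925162, 46.3% GC), holds 1 TATA box, at -203, and no GC box. The Cxcl12 and Il13ra1 windows hold 5 and 3 GC boxes and no TATA box. None of the 4 windows shown has a match to the NF-kB, STAT or AP-1 motif. Among the 9 windows 1 has an NF-kB match, a window of Il1r1 at chr1:40266336-40266635. Over all 32851 windows in the table, 8.46% hold the NF-kB motif, 8.30% the STAT motif, 7.81% the AP-1 motif, 13.6% the TATA box and 35.7% the GC box. GC content was 64.7% in both the Cx3cl1 and Cxcl12 windows, 42.3% in the Il33 window shown and 71.0% in that of Il13ra1. The median over all windows was 52.7%.

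Cx3cl1 (ENSMUSG00000031778.13, mm10 chromosome 8, 94772009 to 94782427, plus strand) was the one member lower in SOHU. Its normalised level, in CPM (reads relative to library size after TMM scaling, which corrects for composition), was 247, 234 and 232 in naive and 102, 90.4 and 159.8 in SOHU. The highest SOHU library stayed under the lowest naive one, and the naive values were close together while SOHU replicate 3 kept the highest SOHU level. The group means were 238 ± 8.09 and 117 ± 37.2 CPM (SD, n = 3 each), a 2.03-fold difference with a log2 fold change, SOHU minus naive, of -1.02 (SE 0.20). When libraries were scaled to the ganglion cell markers, the sign of this value turned (0.12, SE 0.32). That scaling moved the median log2 fold change over all genes to 1.20, so Cx3cl1 stayed below the median gene.

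The other membrane-anchored chemokine, Cxcl16, was higher in SOHU. Its levels were 101, 127 and 134 CPM in naive and 355, 311 and 272 CPM in SOHU, with no overlap between the groups. The log2 fold change was 1.37 (SE 0.16), with the smallest SE among the 10 members. On the genome Cxcl16 (ENSMUSG00000018920.11, chromosome 11, 70453983 to 70459984, minus strand) shares 552 of its 3021 exon bases with Zmynd15 on the opposite strand. Zmynd15 had 1251 reads over all libraries against 30766 for Cxcl16, and it also rose (log2 fold change 1.14, edgeR adjusted p = 0.0323). Since the strand setting of the counting is not stated, reads in the shared bases cannot be assigned with certainty.

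Cxcl12 (chromosome 6, 117168535 to 117181367, plus strand), the ligand of CXCR4, was at 20.7, 43.6 and 29.2 CPM in naive and at 70.7, 79.8 and 67.4 CPM in SOHU. The groups did not overlap, and naive replicate 2 lay nearest to the SOHU libraries. The means were 31.2 ± 11.55 and 72.6 ± 6.41 CPM (SD, n = 3 each), a log2 fold change of 1.22 (SE 0.24).

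Ccl2 (chromosome 11, 82035571 to 82037453, plus strand) did not separate the groups. It had 27, 340 and 150 reads in naive and 30, 792 and 266 in SOHU, or 1.04, 14.6 and 6.63 CPM against 1.25, 35.5 and 10.8 CPM. In both groups replicate 1 was lowest and replicate 2 highest, with a 14.1-fold range among naive and a 28.5-fold range among SOHU libraries. The log2 fold change was 1.10 with an SE of 1.40, larger than the change itself. It was -0.29 without SOHU replicate 2 and 2.06 without naive replicate 2. Between libraries of the same replicate number, the ratio of SOHU to naive was 1.2, 2.43 and 1.63. The SE was smaller with a replicate block, given further below, and whether the numbers mark pairs is not known.

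**Figure D1:**
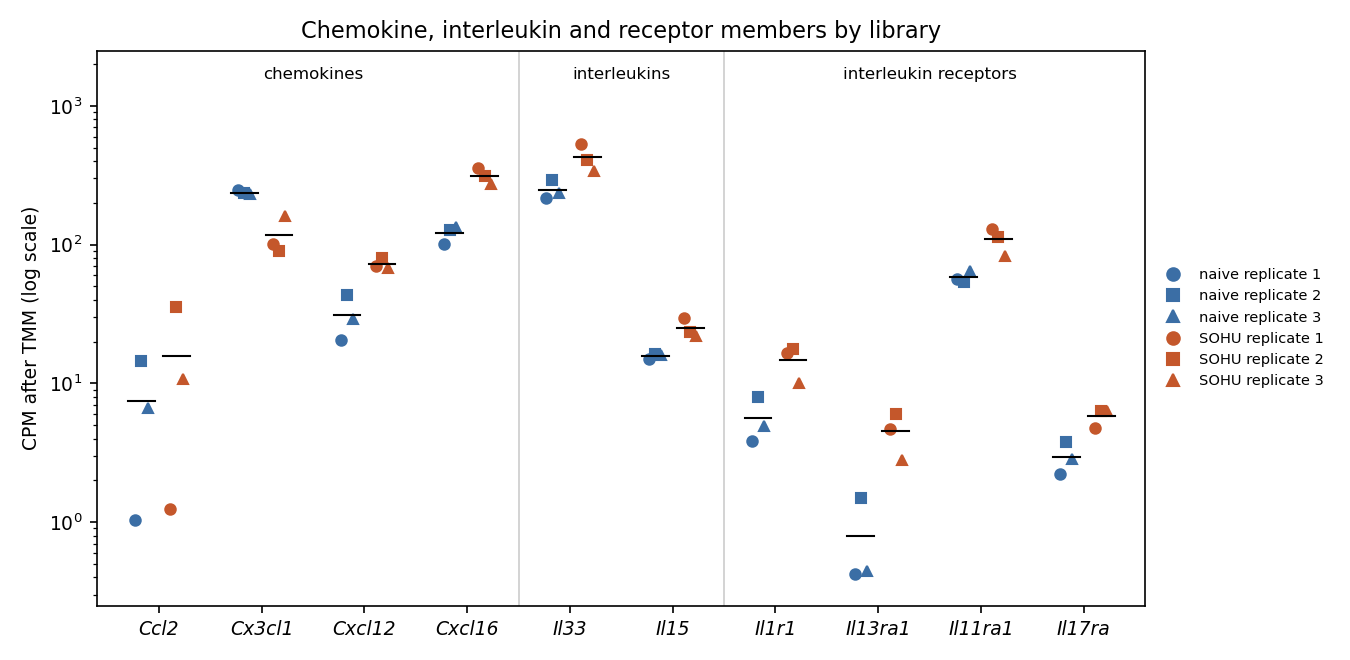
Level of each member in each library, as CPM after TMM scaling on a log axis. Points are single libraries, their shape gives the replicate number, and black bars are the means of the 3 libraries of a group. Cx3cl1 is lower in all SOHU libraries (90.4 to 159.8 against 232 to 247 CPM), Ccl2 overlaps between the groups, and the other members are higher in all SOHU libraries.

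Il33 (chromosome 19, 29925114 to 29960718, plus strand) had the highest level per length of all members in both groups. It stood at 217, 294 and 237 CPM in naive and 532, 409 and 342 CPM in SOHU, with SOHU replicate 1 highest and no overlap between the groups. The means were 249.5 ± 40.2 and 428 ± 96.5 CPM (SD, n = 3 each), and the log2 fold change was 0.78 (SE 0.19). Il15 (chromosome 8, 82331632 to 82403222, minus strand) stood at 15.1, 16.4 and 16.1 CPM in naive and 29.6, 23.5 and 22.1 CPM in SOHU. Its log2 fold change of 0.66 (SE 0.17) was the smallest in size of the 10. Its naive libraries differed by no more than 1.08-fold, and the groups did not overlap.

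All 4 receptor chains were higher in every SOHU library than in any naive library. Il13ra1 (chromosome X, 36112110 to 36171259, plus strand), a chain of the receptor for IL-13 and IL-4, showed the largest fold difference of the 10 members and one of the lowest levels. Reads numbered 11, 35 and 10 in naive and 113, 134 and 69 in SOHU, or 0.790 ± 0.618 and 4.5 ± 1.61 CPM (SD, n = 3 each). The log2 fold change was 2.51 (SE 0.52), and it moved to 3.37 without naive replicate 2, the naive library with the most Il13ra1 reads.

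Il1r1 (chromosome 1, 40225080 to 40317257, plus strand), the signalling receptor of IL-1, was at 3.85, 8.03 and 4.91 CPM in naive and 16.7, 17.8 and 10.1 CPM in SOHU. Naive replicate 2 was again the highest naive library, and the log2 fold change was 1.41 (SE 0.31). Il17ra (chromosome 6, 120463247 to 120487559, plus strand), the chain that IL-17 receptors share, was at 2.23, 3.78 and 2.83 CPM in naive and 4.74, 6.32 and 6.34 CPM in SOHU. Its log2 fold change was 0.98 (SE 0.27), from 58 to 156 reads per library.

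Il11ra1 (chromosome 4, 41699989 to 41769474, plus strand), which binds IL-11, had the highest level per length of the receptor chains. Its levels were 56.8, 54.3 and 65.0 CPM in naive and 130.1, 114 and 83.3 CPM in SOHU, with a log2 fold change of 0.90 (SE 0.18). SOHU replicate 3 lay nearest to the naive libraries. The mouse genome holds near copies of this gene: 46.3% of the 50-base words in the annotated Il11ra1 transcripts also occur in transcripts of Gm13305 and 15.8% in those of Il11ra2. Gm13305 had 0 reads in all 6 libraries and Il11ra2 had 2 to 14 per library. How reads that fit several copies were treated is not given in the sources used here, so the level of Il11ra1 is uncertain in that respect.

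Of the 10 members, all passed the filter on low counts, 8 were among the genes called higher and 1, Cx3cl1, among those called lower by edgeR at an adjusted p under 0.05. Over all 17687 genes tested, 13.9% were called, 8.02% higher and 5.93% lower. The SOHU libraries lay wholly above the naive ones for 8 members and wholly below for 1, beside 19.3% and 19.7% of all genes, and for 39% of all genes the groups did not overlap in either direction. Because this contrast chose the members, nothing is read from these counts. The 9 calls also changed with the libraries used. There were 0 without naive replicate 1 or naive replicate 3 (9 at an unadjusted p under 0.05 in edgeR each time). No gene at all was called when either of these naive libraries was left out. There was 1 call among the members without SOHU replicate 2.

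Levels of different genes were compared per kilobase of exon. In naive libraries Il33 was highest with 86.5 ± 13.9 CPM per kilobase, followed by Cx3cl1 (60.5 ± 2.06), Cxcl16 (39.9 ± 5.82) and Il11ra1 (13.1 ± 1.26). Il15 (7.0 ± 0.294), Ccl2 (6.53 ± 5.99) and Cxcl12 (3.81 ± 1.41) came next, and Ccl2 overlapped with both neighbours. Il1r1 (0.880 ± 0.342), Il17ra (0.340 ± 0.0901) and Il13ra1 (0.213 ± 0.167 CPM per kilobase, SD, n = 3 throughout) were lowest, the last pair overlapping. In SOHU libraries Cxcl16 (103 ± 13.7) stood above Cx3cl1 (29.8 ± 9.48 CPM per kilobase) without overlap, the reverse of their naive order, while Il33 stayed first (148 ± 33.4). Cx3cl1 and Il11ra1 overlapped in SOHU, and Il13ra1 (1.21 ± 0.434) stood above Il17ra (0.670 ± 0.106 CPM per kilobase).

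The members were next set against the cell type markers of the same library. Per 1000 reads of the ganglion cell markers, Cx3cl1 had 43.9, 72.5 and 60.7 reads in naive and 60.6, 58.5 and 73.7 in SOHU. These values overlap, and the ratio of the group means was 1.09. Relative to these markers, the other members except Ccl2 were 3.60- to 12.2-fold higher in SOHU, with no overlap. Scaling to the same markers moved the median log2 fold change over all genes to 1.20.

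Per 1000 reads of the Müller glia and astrocyte markers, most of the higher members no longer separated. Il33 had 15.7, 18.65 and 16.3 reads in naive and 14.0, 15.3 and 16.8 in SOHU (ratio of means 0.911). Il11ra1 (ratio 0.982), Il17ra (1.13), Il15 (0.848), Cxcl12 (1.30) and Il1r1 (1.42) overlapped as well. Cxcl16 remained apart, with 7.29, 8.03 and 9.22 reads in naive and 9.34, 11.6 and 13.4 in SOHU (ratio 1.40). Il13ra1 also remained apart, at 0.0306, 0.0953 and 0.0303 in naive and 0.124, 0.224 and 0.138 in SOHU (ratio 3.11), and Cx3cl1 was lower (ratio 0.286). Apoe held 43.4% of that marker sum. Without it, the ratios were 1.15 for Il33, 1.76 for Cxcl16 and 3.99 for Il13ra1, and Il1r1 then separated as well (ratio 1.81). Cxcl12 (1.64), Il17ra (1.42), Il11ra1 (1.25) and Il15 (1.07) still overlapped. Per 1000 endothelial marker reads, whose sum was also higher in SOHU, Cxcl16 (ratio 1.09), Cxcl12 (1.01), Il1r1 (1.12), Il17ra (0.866) and Ccl2 (0.966) overlapped. Il33 (0.720), Il15 (0.667), Il11ra1 (0.775) and Cx3cl1 (0.219) were lower there, and Il13ra1 (2.44) stayed higher. Without Kdr (81% of that sum), Cxcl16 separated (1.34), and Il33 (0.882) and Il11ra1 (0.948) overlapped. Kdr and Flt1 together gave 98.1% of the endothelial marker reads. The endothelial ratios are thus mostly to these 2 genes, and those without Kdr mostly to Flt1. Pecam1 (3 to 13 reads in a library), Tie1 (0 to 10) and Cdh5 (0 to 2), also in that list, had too few reads to test.

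**Figure D2:**
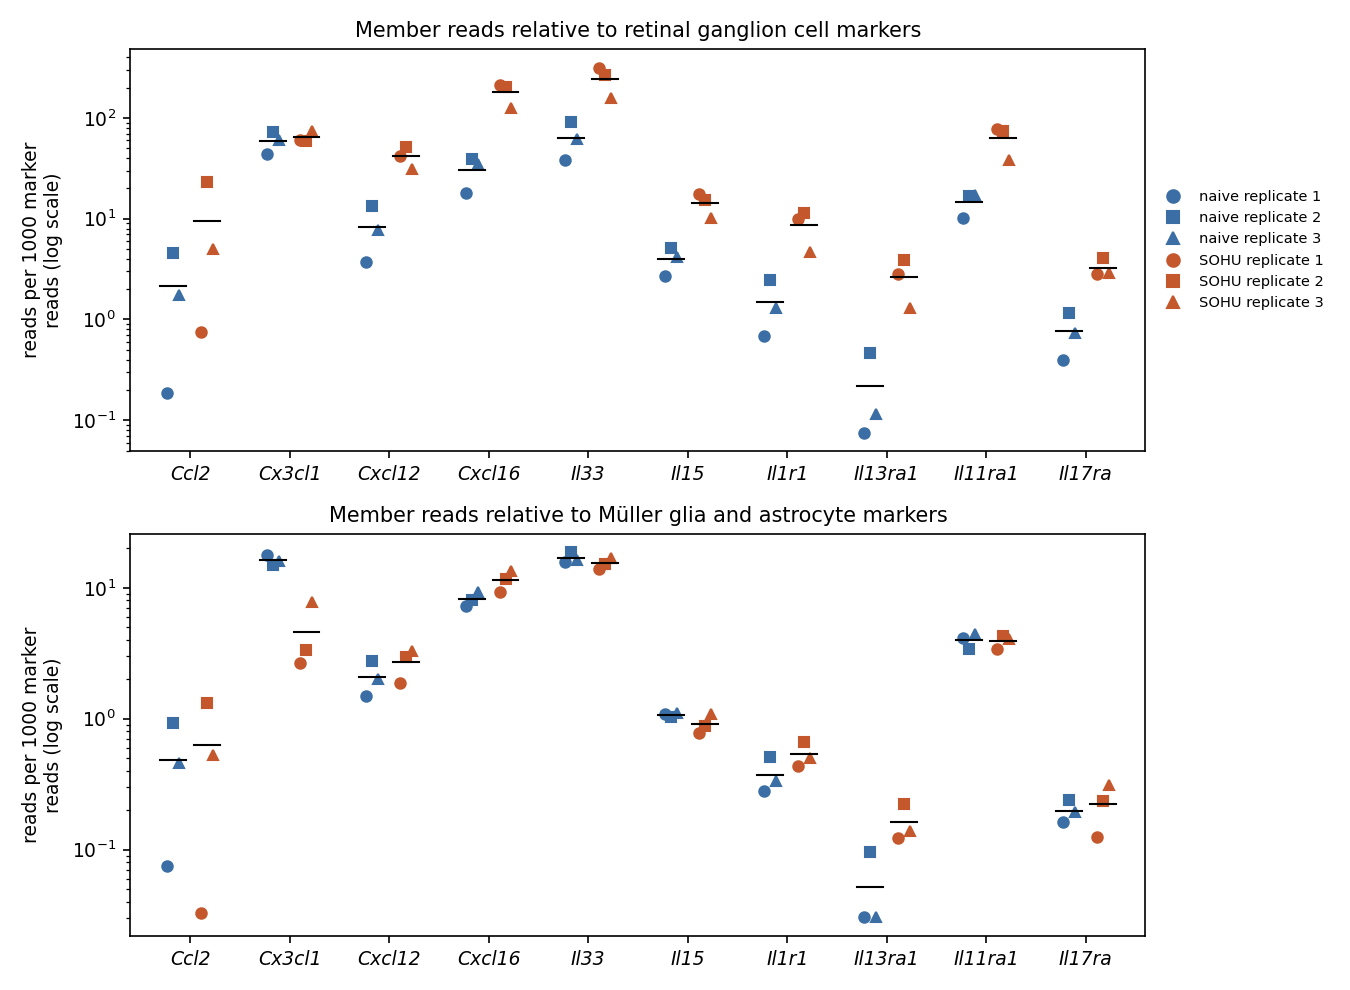
Reads of each member per 1000 reads of the ganglion cell markers (upper panel) and of the Müller glia and astrocyte markers (lower panel), on log axes. Points are single libraries, their shape gives the replicate number, and black bars are the means of the 3 libraries of a group. Cx3cl1 overlaps between the groups in the upper panel (ratio of means 1.09), and Il33 overlaps in the lower panel (ratio 0.911), where Cxcl16 and Il13ra1 stay higher in all SOHU libraries.

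The sums of some other marker lists also differed between the groups, in part through 1 or 2 genes. The 10 reactive glia markers, which include Stat3, Cp and Cd44, held 0.0743 to 0.224% of the reads in naive and 0.329 to 0.472% in SOHU, and 8 rose. The 15 microglia and macrophage markers, of which Cx3cr1 is one, summed to 0.000693 to 0.00352% of the reads in naive and 0.00403 to 0.0104% in SOHU, with no overlap, no marker at 0 in any library and 5 of the 14 tested higher. The 8 monocyte and neutrophil markers, which include Ccr2, summed to 0.000201 to 0.000933% and 0.00201 to 0.0045%, but 93.9% of these reads were from Lyz2, the one marker tested (higher in SOHU). Without Lyz2 the list had 3, 49 and 23 reads in naive and 31, 38 and 29 in SOHU, and the groups overlapped. S100a8 and S100a9 were at 0 in naive replicates 1 and 2 and SOHU replicates 1 and 3. The sums of the 9 T, natural killer and B cell markers overlapped, at no more than 0.000184% in any library. The 10 endothelial markers held 0.0339 to 0.0388% in naive and 0.0726 to 0.0960% in SOHU, of which Kdr and Flt1 gave 98.1%. These 2 genes rose, the other 5 tested did not pass (Esam, log2 fold change -0.71, edgeR adjusted p = 0.0589), and without this pair the sums overlapped. The 10 amacrine and horizontal cell markers held 0.182 to 0.203% in naive and 0.0968 to 0.141% in SOHU, the 9 pericyte and fibroblast markers 0.00321 to 0.00503% and 0.00674 to 0.00756% (overlapping without Rgs5 and Pdgfrb), and the rod, cone, bipolar cell and pigment epithelium sums overlapped. The part of these cells in the members' levels was not tested.

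The ligands and receptors that work with the members gave 3 calls among 19 genes tested (15.8%, beside 13.9% of all genes), all higher in SOHU: Il6st, Il17rc and Il17rb. The other partner genes, of 34 listed, had too few reads to test. Il6st encodes gp130, the signalling chain that IL-11 and IL-6 receptors share. It had 1447, 1764 and 1364 reads in naive and 3041, 2810 and 2730 in SOHU, and rose 1.89-fold (log2 fold change 0.92, SE 0.15, edgeR adjusted p = 0.0119). Il17rc, which joins IL17RA to form the receptor for IL-17A and IL-17F, rose from 23.4 ± 7.35 to 57.0 ± 9.35 CPM (SD, n = 3 each; log2 fold change 1.29, SE 0.24, edgeR adjusted p = 0.0144). Il17rb, the chain that binds IL-25, had 45, 20 and 52 reads in naive and 125, 126 and 74 in SOHU and rose as well (log2 fold change 1.5, SE 0.39, edgeR adjusted p = 0.0363). The count of 3 fell to 0 without naive replicate 1 or naive replicate 3 (4 and 5 partner genes at an unadjusted p under 0.05), was 1 with SOHU replicate 2 left out and 5 with SOHU replicate 3 left out. Leaving out either of these naive libraries left no call over all genes either.

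The remaining receptor partners were not called. Il4ra, the partner of Il13ra1, had a log2 fold change of 0.62 (SE 0.21, edgeR adjusted p = 0.0772), with all SOHU libraries above all naive ones. Il17rd had 0.80 (SE 0.26, edgeR adjusted p = 0.0672) and Il17re -0.41 (SE 0.24, edgeR adjusted p = 0.279). Il1rap, the partner of both Il1r1 and the IL-33 receptor, had 0.33 (SE 0.27, edgeR adjusted p = 0.433), and the IL-17 adaptor gene Traf3ip2 had -0.22 (SE 0.24, edgeR adjusted p = 0.568). Il15ra, which presents IL-15, was at 2.81 ± 0.240 CPM in naive and 2.99 ± 0.632 CPM in SOHU (SD, n = 3 each), and the 95% interval of its log2 fold change ran from -0.52 to 0.70.

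For the chemokine receptors the reads were few. Cx3cr1, the receptor of fractalkine, had 7, 31 and 9 reads in naive and 116, 23 and 23 in SOHU (log2 fold change 1.77, SE 0.77, edgeR adjusted p = 0.151). SOHU replicate 1 stood far above the rest, and the other SOHU libraries had fewer reads than naive replicate 2. Cxcr4, the receptor of CXCL12, had 8 to 15 reads in each library. Ccr2 had 0 to 6 reads, the CXCL16 receptor gene Cxcr6 0 to 21, and the IL-33 receptor gene Il1rl1 0 to 16, and none of these 3 was tested. The scavenging receptor gene Ackr1 was well covered, with 1821, 1415 and 1678 reads in naive and 499, 955 and 1693 in SOHU (log2 fold change -0.63, SE 0.35, edgeR adjusted p = 0.253), and Ackr3 had -0.28 (SE 0.47, edgeR adjusted p = 0.718). Of the sheddases that release both membrane-anchored chemokines, Adam17 had a log2 fold change of 0.97 (SE 0.29, edgeR adjusted p = 0.0531) and Adam10 one of 0.19 (SE 0.18, edgeR adjusted p = 0.517).

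**Figure D3:**
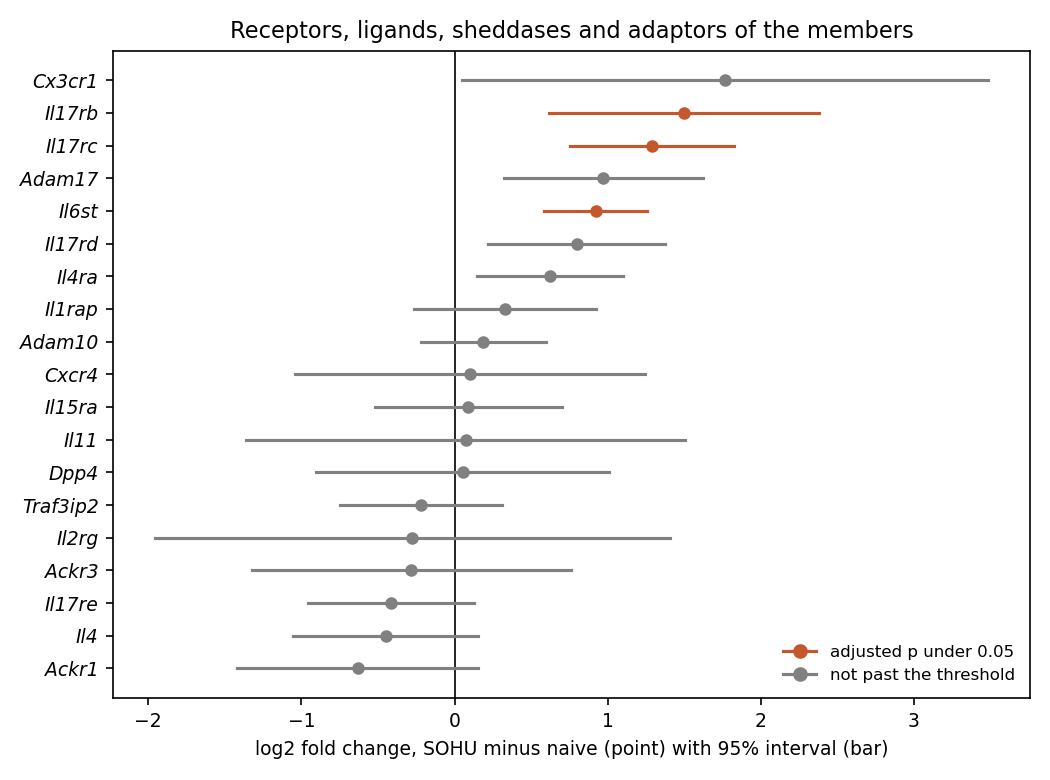
Log2 fold change, SOHU minus naive, of the 19 tested genes that work with the members, from edgeR, with bars for the 95% interval over 3 libraries a group. Coloured points passed an adjusted p of 0.05: Il17rb, Il17rc and Il6st lie to the right of 0, and the other 16 did not pass.

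Ligands of the 4 receptor chains were at or near the limit of detection, apart from Il4. Il13 and Il17a had 0 reads in all 6 libraries, which allows up to 0.116 to 0.135 CPM in a library (3 reads, counting error only). Il17c and Il17f had at most 2 reads in any library and Il25 at most 11. Il1a had 0, 1 and 7 reads in naive and 18, 4 and 0 in SOHU, and Il1b 2, 9 and 8 against 7, 3 and 2. Il11 had 3 to 14 reads in a library (log2 fold change 0.07, SE 0.64, edgeR adjusted p = 0.952). Il4 had 180, 109 and 97 reads in naive and 78, 86 and 112 in SOHU, and the groups overlapped (edgeR adjusted p = 0.288).

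Outside the members, 139 further chemokine, interleukin and receptor genes were listed, of which 56 had enough reads to test and 20 had no read in any library. A total of 4 passed, 7.14% of those tested beside 13.9% of all genes: Il6st, Il17rc and Il17rb, already named, and Il34. Il34, a cytokine that acts on the microglial receptor CSF1R and is made by neurons, fell from 853, 606 and 707 reads in naive to 383, 338 and 579 in SOHU (log2 fold change -0.72, SE 0.20, edgeR adjusted p = 0.0427). Its sign turned when libraries were scaled to the ganglion cell markers (0.45), where the median over all genes was 1.20. By group, 0 of 14 chemokine ligands, 0 of 9 chemokine receptors, 1 of 11 interleukins and 3 of 22 interleukin receptors passed. Their median log2 fold changes were 0.29, -0.11, 0.07 and 0.51, beside 0.01 for all genes. The count of 4 changed with the libraries used: it was 0 without naive replicate 1 or naive replicate 3 (11 and 11 at an unadjusted p under 0.05), 2 when SOHU replicate 1 was left out, 1 for SOHU replicate 2 and 12 for SOHU replicate 3. Without either of these naive libraries, no gene of the whole set was called. The family count was 9 in DESeq2 and 5 in limma-voom with all libraries.

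Several genes of the family followed Ccl2 from library to library. Across the 6 libraries, the correlation of log2 CPM with Ccl2 was above 0.9 for 6 of the 56 genes: Cxcl10 (r = 0.977), Ccl7 (0.965), Cxcl11 (0.965), Il15ra (0.955), Ccr9 (0.924) and Ccl5 (0.922). These are descriptions over 6 libraries that share depth and group. Cxcl10, an interferon-induced ligand, had 213, 1753 and 609 reads in naive and 365, 2923 and 1303 in SOHU. Ccl7, a neighbour of Ccl2 in function that also binds CCR2, had 9, 130 and 25 against 4, 409 and 167. As for Ccl2, replicate 1 was lowest and replicate 2 highest in both groups for these 2 genes, and neither was called (edgeR adjusted p = 0.659 for Cxcl10 and 0.502 for Ccl7). These genes were singled out after their values were seen.

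**Figure D4:**
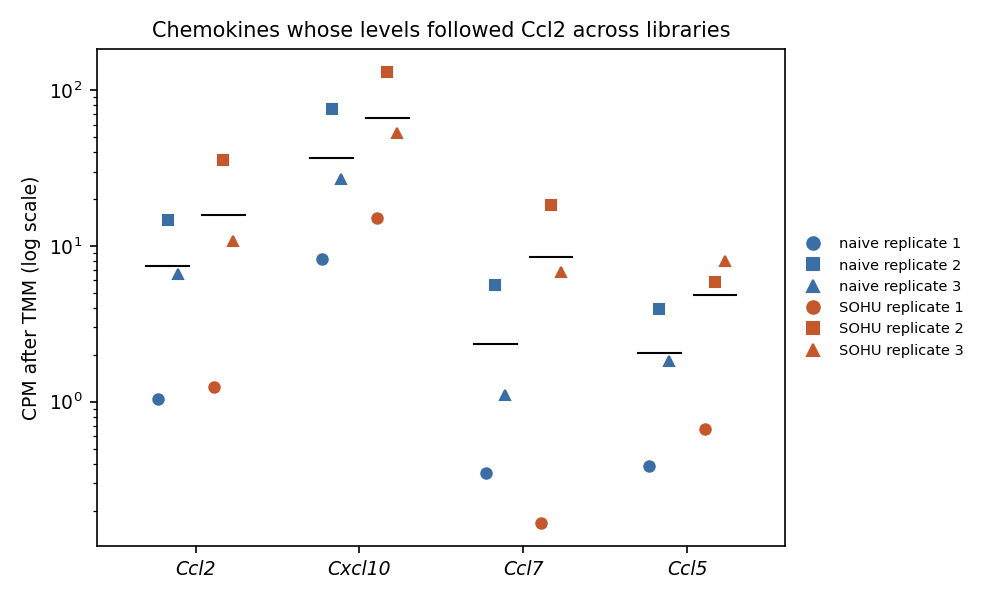
Level of Ccl2, Cxcl10, Ccl7 and Ccl5 in each library, as CPM after TMM scaling on a log axis. Points are single libraries, their shape gives the replicate number, and black bars are the means of the 3 libraries of a group. Replicate 1 is lowest in both groups for these 4 genes, and the groups overlap.

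The members themselves were compared with each other. Over the 6 libraries the 8 members that were higher in SOHU correlated with each other at r = 0.712 (Il11ra1 and Il17ra) to 0.988 (Il1r1 and Il13ra1), and Cx3cl1 with them at -0.78 to -0.97. Ccl2 correlated with the other members at -0.222 to 0.587. The difference between groups, on which the members were chosen, enters these values, so they are a description only. In deviations from the group means, these 8 members correlated at -0.46 (Il11ra1 and Il17ra) to 0.949 (Il1r1 and Il13ra1). Il33 and Il15 correlated at 0.901 there, Cxcl12 and Il11ra1 at 0.00154 and Il15 and Il17ra at -0.306. Ccl2 followed Il17ra most closely there, at 0.897.

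The single gene most like each member, by the correlation of log2 CPM over the 6 libraries among genes whose log2 CPM averaged 3 or more, was Dscam for Cx3cl1 (r = 1.000), Nav2 for Cxcl16 (1.000), Cp for Cxcl12 (0.998) and Ly6e for Ccl2 (0.998). For Il33 it was Arhgap6 (0.998), for Il15 Ormdl2 (1.000), for Il1r1 Pard3 (0.998), for Il13ra1 Cd44 (0.994), for Il11ra1 Cox6b2 (0.998) and for Il17ra Acvr1 (0.990). At a lower bar, r over 0.9, there were 94 of 10461 genes for Ccl2, 275 of 10461 for Il17ra and 1319 of 10460 for Cx3cl1. These are descriptions over 6 libraries, and the difference between groups enters them.

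Genes that carry the receptors' signals were higher where they were called, in lists written with earlier results of these data known. The called share was 25% in the MyD88, TRAF6 and NF-kB list and 18.8% in the JAK and STAT list. Over all genes tested it was 13.9%, with 8.02% higher and 5.93% lower. In the list of MyD88, TRAF6 and NF-kB signalling, 5 of 20 tested rose and none fell, with a median log2 fold change of 0.59: the IL-1 receptor kinases Irak4 (log2 fold change 1.52, SE 0.26, edgeR adjusted p = 0.0119) and Irak2 (0.98, edgeR adjusted p = 0.0427), their adaptor gene Myd88 (1.16, edgeR adjusted p = 0.0237), the NF-kB subunit gene Rela (0.82, edgeR adjusted p = 0.0339) and the IkB kinase gene Chuk (0.70, edgeR adjusted p = 0.0276). Irak4 had 76, 77 and 73 reads in naive and 290, 165 and 189 in SOHU. In the JAK and STAT list, 3 of 16 rose and none fell, with a median of 0.27. These were Socs3, an inhibitor that STAT3 induces (46, 126 and 40 reads against 456, 365 and 203), Stat3 (log2 fold change 0.84) and the kinase gene Jak3 (1.62). Stat5b had -0.57 (edgeR adjusted p = 0.0665).

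Among NF-kB target genes 2 of 16 rose and none fell (12.5% called, beside 13.9% of all genes), with a median of 0.705. These were Cebpd, which encodes a transcription factor (111 ± 60.2 to 394 ± 76.7 CPM, SD, n = 3 each), and Nfkbiz, which encodes an atypical IkB protein that IL-1 and IL-17 induce (8.32 ± 3.48 to 20.7 ± 7.30 CPM). Bcl3 (44, 255 and 98 reads against 503, 579 and 440) and Tnfaip2 (7, 43 and 30 against 67, 307 and 80) had SOHU libraries wholly above the naive ones and were not called (edgeR adjusted p = 0.0574 and 0.0671). Of the 52 genes in the 3 lists, 10 were called, beside 13.9% of all genes. That count was 0 without naive replicate 1 or naive replicate 3 (15 and 16 at an unadjusted p under 0.05), as was the count over all genes. It was 4 when SOHU replicate 1 was left out and 1 for SOHU replicate 2. The cells of origin of these transcripts were not tested.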

How the data were processed

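RNA from an anti-HA pull-down of mouse retina was sequenced in 3 naive and 3 SOHU libraries. The authors deposited raw gene counts, as a matrix of 55335 genes that equals the file of each single library; per the submitters' processing notes the tools were bcl2fastq 2.17, Trim Galore, HISAT2, featureCounts and MultiQC, with build mm10. The sources used here do not give the strand setting, the treatment of multi-mapping reads or the annotation release. Identifiers were named from GENCODE M21 (55154 matched).

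Counts were fitted in edgeR 4.0.16 (R 4.3.3): filterByExpr by group (17687 genes, at least 99.84% of reads), TMM factors of 0.943 to 1.04, quasi-likelihood test of SOHU against naive with no covariate, and Benjamini-Hochberg adjustment over all genes tested, with a threshold of 0.05. The common biological coefficient of variation was 22.3%. CPM are relative to library size after TMM scaling, and correlations used log2 CPM with a prior count of 2. SE is that of the log2 fold change, and the method was tested on simulated data. With 3 libraries against 3 an exact permutation test of a single value cannot go below p = 0.1, so none was run. Alternatives were other scaling factors, scaling to the ganglion cell markers, other filters, DESeq2 1.42.0, limma-voom (limma 3.58.1), a replicate block and leaving out each library.

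The members and all gene lists were chosen with earlier results of these data known. Named are all members, every called gene of the family and partner lists, partners of each member, up to 4 genes with the smallest p per signalling or target list, and the gene most like each member among those whose log2 CPM averaged 3 or more. Irak2 and the genes that followed Ccl2 were named after their values were seen.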

Additional observations from a re-analysis of the deposited data

How the results depend on the processing

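The log2 fold changes of the 10 members were recomputed under every alternative: 129 values stayed within the spread between replicates and the others moved by more or turned their sign. The sign turned for Cx3cl1 with scaling to the ganglion cell markers and for Ccl2, whose groups overlap, without SOHU replicate 2 (-0.29). Scaling to the ganglion cell markers moved the median over all genes to a log2 fold change of 1.20, and every value under it is relative to that shift. Cx3cl1 was then at 0.12 and Il34 at 0.45 (edgeR adjusted p = 0.249), and 12892 of all genes, 30 of the family outside the members, 11 partner genes and 46 signalling and target genes were called, against 2467, 4, 3 and 10. Of all calls 12890 were then higher and 2 lower, against 1418 and 1049. DESeq2 called 3775 of all genes, 9 of the family, 6 partners and 16 signalling genes, and with no filter on low counts the family had 10 calls. Leaving out 1 library gave 0 to 3896 calls over all genes, 0 to 12 in the family, 0 to 5 among partners and 0 to 13 among signalling genes. The zeros came without naive replicate 1 or naive replicate 3, where edgeR had 3919 and 4251 genes at an unadjusted p under 0.05; DESeq2 and limma-voom were not run on those subsets. Each gene named as called lost its call there, and Il6st and Irak4 lost it in no other alternative. Irak2 also lost it in limma-voom and with no filter, and Socs3 and Cebpd with no filter. The marker sums without the 1 or 2 most abundant genes of each list were added after seeing the data. The groups share replicate numbers. Deviations from the group means correlated at r = 0.126, 0.303 and 0.00981 for same-numbered libraries, and at -0.335 to 0.159 for different numbers. The labels do not state that libraries of a number belong together, so no pairs were assumed, and whether they are pairs is not known. With a replicate block there were 2070 calls over all genes, 8 in the family, 2 among partners and 12 among signalling genes, Irak2, Rela, Jak3 and Il17rb did not pass, and Ccl2 had a log2 fold change of 0.83 (SE 0.25). Ccr2, Cxcr6 and Il1rl1 had too few reads to pass the filter.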

Other observations

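A pair of family genes outside the members had few or no naive reads and more SOHU reads, without passing the test. Cxcl5, a ligand of the neutrophil receptor CXCR2, had 0, 16 and 0 reads in naive and 58, 320 and 45 in SOHU (edgeR adjusted p = 0.0787). Il7, a growth factor of lymphocytes, had 0, 10 and 1 against 22, 46 and 25 (edgeR adjusted p = 0.0502). For both genes all SOHU libraries lay above all naive ones, as for 19.3% of all genes, and replicate 2 was highest in each group. Both were singled out after their values were seen. Lcn2, a secreted iron carrier among the NF-kB targets, also varied widely within groups. It had 240, 10073 and 2111 reads in naive and 1347, 14645 and 7835 in SOHU (edgeR adjusted p = 0.723).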
